A study of Mus musculus with 13 samples.

Results

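Genes that mark the surface and the secretions of lymphatic endothelium were followed in mouse tail tissue with lymphedema, the swelling left by failed lymph drainage. They are Lyve1, Pdpn, Flt4, Ccl21a, Mmrn1, Reln, Nrp2, Itga9, Fxyd6 and Sema3d, which are 10 of the 55357 genes in the count table and were picked by symbol as known markers. Total RNA was sequenced after removal of ribosomal RNA in 13 samples, 6 labelled TNTProx1 and 7 labelled TNTSham. TNT is read here as tissue nanotransfection, in which a brief electric field moves nucleic acids into the skin. Prox1 is named in the label of the first group and no gene in that of the sham group. Both groups had an age of 12 weeks and were taken at day 28 after TNT. Strain and genotype are not in the labels. Nor do they state that each sample is its own animal, and p-values here measure the spread among these samples.

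Lymphatic capillaries and collecting vessels are lined by endothelium that arises mostly from veins, in cells that switch on the homeobox transcription factor Prox1. These cells keep their identity through Prox1 and grow toward the factors Vegfc and Vegfd, which they sense with the receptor tyrosine kinase Flt4 and its co-receptor Nrp2. In skin they take up fluid and guide dendritic cells into the vessels, and several of their surface proteins are shared with macrophages, fibroblasts, keratinocytes or bone cells.

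All 10 genes were well covered, with 878 to 13394 reads per gene and library. The total count per library, in units of M (mega), was 40.4M ± 5.08M in TNTProx1 and 36.6M ± 6.32M in TNTSham (SD, n = 6 and 7). TNTProx1 4, 5 and 6 stood apart in library make-up. TEC genes, gene models that await experimental proof, held a share of 0.136 to 0.193% there and of 0.378 to 0.745% in the remaining 10 libraries. Malat1, a nuclear RNA, stood at 3410 to 3539 CPM in these 3 libraries and at 8979 to 16814 CPM in the other 10. CPM are counts per mega-count, with library sizes scaled by TMM, the trimmed mean of M-values method. No TNTSham library resembled these 3, so in these 3 a difference in library make-up cannot be told apart from the group. The split lies inside TNTProx1, as TNTProx1 1 to 3 had 12666 to 16602 CPM of Malat1, within the TNTSham range. The fold changes of the 10 genes without TNTProx1 4, 5 and 6 are given beside those for all 13. TNTProx1 2 had the lowest summed level of 12 keratinocyte markers, 6016 CPM, against 18870 to 61956 CPM in the other TNTProx1 libraries and 27746 to 47676 CPM in TNTSham. TNTSham 1 was the 1 library with Xist, the RNA of the inactive X chromosome, at 2095 CPM, and the other 12 had 2.01 CPM or less.

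Per kilobase of exon, Ccl21a, Pdpn and Lyve1 had the highest levels of the 10 and Reln the lowest. Exon length here is the union of all annotated exons of a gene, 23738 bases for Reln. The order depends on this length, and levels by the length of single transcripts were not computed. Ccl21a stood at 50.3 ± 25.7 CPM per kb in TNTProx1 and 47.8 ± 15.2 in TNTSham (SD, n = 6 and 7). Pdpn stood at 48.1 ± 6.43 CPM per kb in TNTProx1 and 33.3 ± 8.89 in TNTSham, and Lyve1 at 41.9 ± 17.9 in TNTProx1 and 27.6 ± 6.93 in TNTSham. In TNTSham the order then ran through Nrp2 (17.0 CPM per kb), Mmrn1 (14.2), Fxyd6 (12.3), Sema3d (9.54), Flt4 (6.36), Itga9 (5.22) and Reln (3.13). Between neighbours in this order, only the ranges of Sema3d against Flt4 and of Itga9 against Reln did not overlap across the 7 TNTSham libraries. The order of Ccl21a over Pdpn, of Nrp2 over Mmrn1 and of Mmrn1 over Fxyd6 held in 4 of 7 TNTSham libraries each, so these neighbours did not differ beyond their spread. Prox1 itself stood at 4.47 ± 2.26 CPM per kb in TNTProx1 and 3.35 ± 0.351 in TNTSham.

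**Figure D1:**
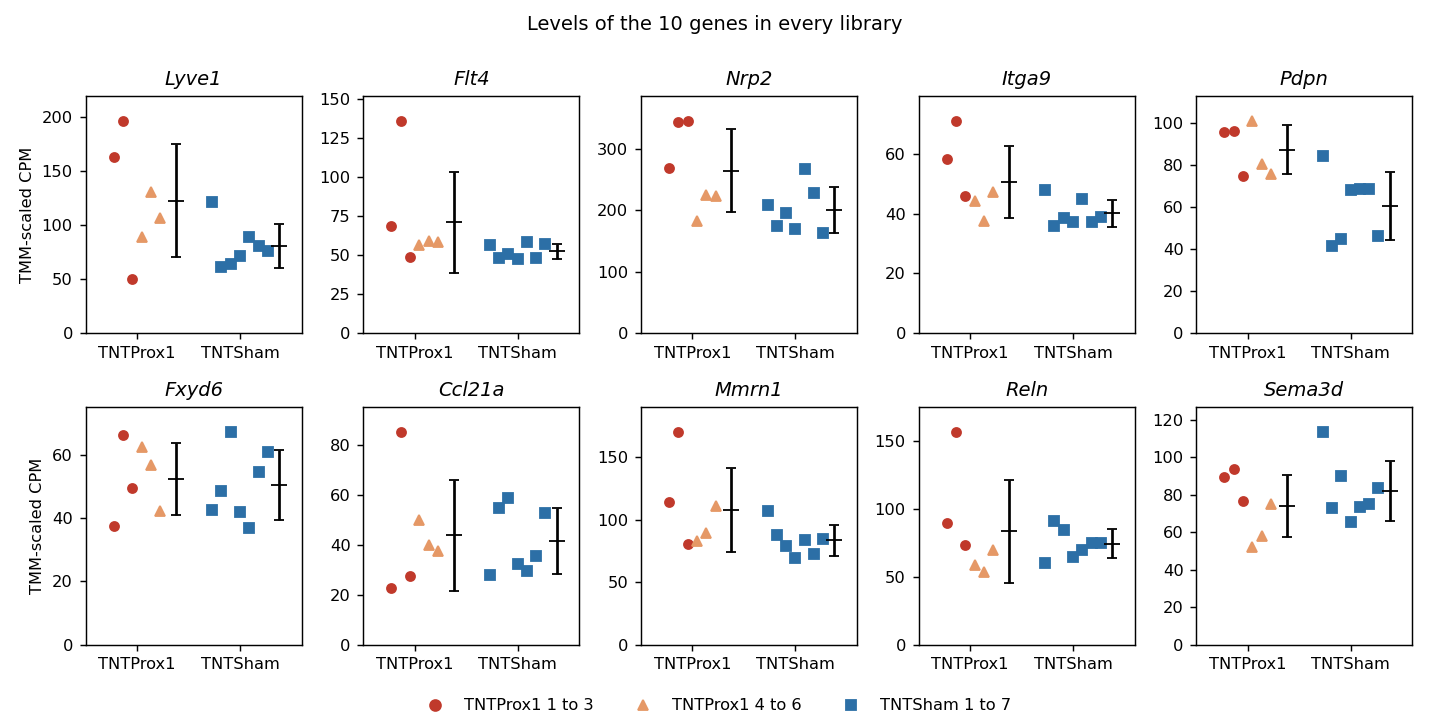
Level of each gene in every library, in TMM-scaled CPM on axes that start at 0, with TNTProx1 left of TNTSham. Points are libraries, the bar gives the mean with 1 SD, and triangles mark TNTProx1 4 to 6. For Flt4, Mmrn1 and Reln 1 TNTProx1 library lies far above the rest, and in no panel do the groups separate.

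Most of the 10 genes had higher means in TNTProx1, and none of them passed the test across the whole table. Among 22876 genes, the quasi-likelihood test of edgeR with Benjamini-Hochberg adjustment called 0 (0.0%), with 2802 genes at an unadjusted p under 0.05. Fold changes are TNTProx1 over TNTSham. Of the 10 genes 9 had a log2 fold change above 0, against 47.7% of all genes tested, and their median was 0.35, against -0.02 over all genes. At an unadjusted p under 0.05, 6 of the 10 were higher and none lower, where 8.33% of all genes were higher at that level. These 6 were Pdpn, Itga9, Nrp2, Lyve1, Mmrn1 and Flt4. The list was drawn up with earlier results of these libraries known, so its direction is no independent evidence. In whole tissue, more cells of a type and more RNA per cell cannot be told apart.

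Single libraries carried much of this. Without TNTProx1 2 the median of the 10 genes was 0.17 and 6 of 10 were higher. Only 1 of the 10 was then at an unadjusted p under 0.05 in edgeR, where 2085 of 23076 genes were higher at that level. Without TNTSham 3 that count was also 1, and without TNTProx1 1, TNTSham 2 or TNTSham 4 it was 2. In those fits 1471 to 2583 of all genes were higher at that level. Without TNTProx1 4 to 6 the median was 0.54 and 10 of 10 were higher, against 49.8% of the 23853 genes tested there, and 7 were at an unadjusted p under 0.05, against 9.34% of all genes that were higher at that level. DESeq2 called none of the 10 (1.98% of all genes were called higher), with Pdpn closest at an adjusted p of 0.0777. Limma voom with quality weights called 1, Nrp2, at a log2 fold change of 0.67 and an adjusted p of 0.0374, where 1.86% of all genes were called higher.

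**Figure D2:**
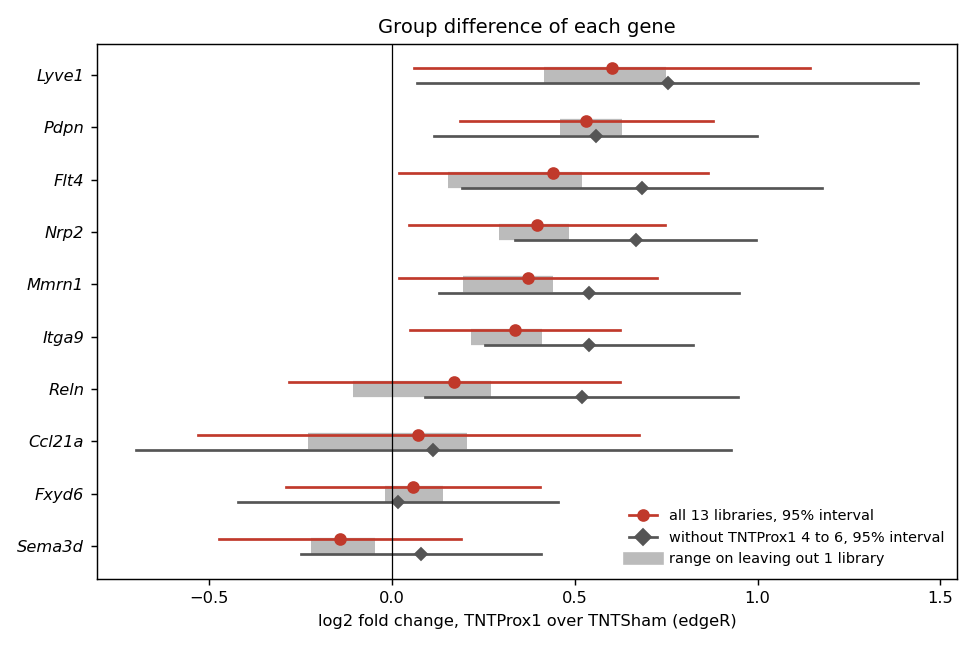
Log2 fold change of each gene, TNTProx1 over TNTSham, from edgeR, with 95% intervals for all 13 libraries (circles) and for the 10 without TNTProx1 4 to 6 (diamonds). Grey bars give the range when 1 library at a time is left out. They cross 0 for Reln, Ccl21a and Fxyd6, and all 13 libraries put Sema3d below 0 and the other 9 genes above it.

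The promoters of Flt4, Mmrn1 and Reln are shown because these 3 genes followed Prox1 most closely across libraries. They are RefSeq windows on build GRCm38.p6, an older build than that of the counts, and run from 250 bases before the gene start to 50 after it, 5′ to 3′ on the gene's strand. Flt4 lies at chr11:49609429-49609728 on the plus strand, Mmrn1 at chr6:60944067-60944366 on the plus strand and Reln at chr5:22344656-22344955 on the minus strand. Capitals mark GGAAG, or CTTCC on the other strand, letters found in many binding sites of ETS family factors.
Flt4: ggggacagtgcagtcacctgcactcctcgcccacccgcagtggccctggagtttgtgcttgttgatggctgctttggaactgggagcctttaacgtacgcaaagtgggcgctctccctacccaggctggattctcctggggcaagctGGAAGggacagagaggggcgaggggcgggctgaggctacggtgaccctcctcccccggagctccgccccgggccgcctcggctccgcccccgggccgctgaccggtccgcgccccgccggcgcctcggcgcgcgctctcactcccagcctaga
Mmrn1: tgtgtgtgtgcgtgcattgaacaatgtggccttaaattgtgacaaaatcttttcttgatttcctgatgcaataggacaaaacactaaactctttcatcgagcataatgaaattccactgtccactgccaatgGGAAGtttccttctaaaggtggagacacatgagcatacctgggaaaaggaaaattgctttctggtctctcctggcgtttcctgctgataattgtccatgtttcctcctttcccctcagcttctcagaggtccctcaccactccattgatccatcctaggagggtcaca
Reln: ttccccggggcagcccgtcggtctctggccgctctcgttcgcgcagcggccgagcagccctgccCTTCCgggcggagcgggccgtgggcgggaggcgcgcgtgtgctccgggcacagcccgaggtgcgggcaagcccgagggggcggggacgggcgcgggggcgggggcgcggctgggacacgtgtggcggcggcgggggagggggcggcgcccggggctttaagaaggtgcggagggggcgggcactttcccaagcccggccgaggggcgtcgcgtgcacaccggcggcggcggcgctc
Each of these windows held 1 match. Ccl21a held 3 and Sema3d 2, and Pdpn, Nrp2, Itga9 and Fxyd6 held none. Lyve1 had no window in the table, which left 9 of 10 genes. The same letters were in 71.4% of 32851 promoter windows, so a match sets no gene apart. In base composition the windows ranged widely, with a GC content of 80.7% for Reln, 70.7% for Nrp2 and 70.3% for Flt4, against 44.3% for Mmrn1 and 48.7% for Pdpn.

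Among the receptors, Flt4 (ENSMUSG00000020357.4, chromosome 11) senses Vegfc and Vegfd. It stood at 68.6, 136, 48.5, 56.1, 59.2 and 58.4 CPM in TNTProx1 1 to 6, and at 56.5, 48.3, 50.4, 47.2, 58.6, 48.2 and 57.1 CPM in TNTSham 1 to 7. TNTProx1 2 lay far above all others, TNTProx1 1 and 5 lay above the TNTSham maximum of 58.6 CPM, and TNTProx1 3, 4 and 6 were within the TNTSham range. The log2 fold change of Flt4 was 0.44 ± 0.20 (SE; 95% interval 0.02 to 0.86; edgeR adjusted p = 0.390), with 5 of 6 TNTProx1 libraries above the TNTSham median. Without TNTProx1 2 it was 0.15, and with the 10 libraries it was 0.68 ± 0.23 (edgeR adjusted p = 0.115).

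Nrp2 (ENSMUSG00000025969.16, chromosome 1), neuropilin 2, is a co-receptor for Vegfc at Flt4 and a receptor for secreted semaphorins. Its levels were 269, 344, 345, 182, 225 and 223 CPM in TNTProx1 1 to 6, against 208, 175, 196, 170, 268, 229 and 164 CPM in TNTSham 1 to 7. TNTProx1 1, 2 and 3 were above every TNTSham library, and TNTProx1 4, 5 and 6 were within the TNTSham range. Nrp2 was the only 1 of the 10 genes with TNTProx1 1, 2 and 3 above every TNTSham library, which 3.45% of all genes tested had, and 0.498% of all genes also had TNTProx1 4, 5 and 6 within the TNTSham range. Over 13 libraries the log2 fold change was 0.40 ± 0.16 (SE; 95% interval 0.05 to 0.75; edgeR adjusted p = 0.337), with 5 of 6 TNTProx1 libraries above the TNTSham median, and over 10 it was 0.67 ± 0.15 (edgeR adjusted p = 0.0694). Leaving out 1 library at a time gave 0.29 to 0.48.

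Lyve1 (ENSMUSG00000030787.5, chromosome 7) is a hyaluronan receptor of lymphatic capillaries that some tissue macrophages also carry. It had 162, 196, 50.2, 88.7, 130 and 106 CPM in TNTProx1 1 to 6, against 121, 61.5, 63.7, 71.4, 89.1, 80.9 and 76.3 CPM in TNTSham 1 to 7. The TNTProx1 libraries held both the highest value, in TNTProx1 2, and the lowest of all 13, in TNTProx1 3. In edgeR Lyve1 had the largest log2 fold change of the 10 genes, 0.60 ± 0.25 (SE; 95% interval 0.06 to 1.14; edgeR adjusted p = 0.351), a fold of 1.52. It was 0.42 without TNTProx1 2, 0.75 without TNTProx1 3 and 0.75 ± 0.32 with the 10 libraries (edgeR adjusted p = 0.192). In limma voom with quality weights it was 0.20 ± 0.30, below the values of Nrp2, Pdpn, Itga9, Flt4 and Mmrn1 there. An exact permutation of log2(CPM + 0.5) gave p = 0.112.

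Of the adhesion and membrane proteins, Pdpn (ENSMUSG00000028583.15, chromosome 4) had the smallest p. It encodes podoplanin, a mucin-like glycoprotein that binds Clec1b on platelets and is also made by fibroblasts, keratinocytes and osteocytes. Pdpn stood at 96.0, 96.5, 74.8, 101, 80.4 and 76.0 CPM in TNTProx1 1 to 6, against 84.5, 41.7, 45.1, 68.3, 68.9, 68.8 and 46.3 CPM in TNTSham 1 to 7. All 6 TNTProx1 libraries lay above all TNTSham libraries but TNTSham 1. On the log2 scale the fold change was 0.53 ± 0.16 (SE; 95% interval 0.18 to 0.88; edgeR adjusted p = 0.181), and it kept to 0.46 to 0.63 when 1 library at a time was left out. With the 10 libraries it was 0.56 ± 0.20 (edgeR adjusted p = 0.142). The exact permutation test over 1716 splits gave p = 0.0105, or 0.236 adjusted over all genes.

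Itga9 (ENSMUSG00000039115.14, chromosome 9) encodes the integrin alpha chain that pairs with Itgb1, binds fibronectin and tenascin and is needed for lymphatic valves. It ranged from 37.6 to 71.0 CPM in TNTProx1 with a median of 46.5, against 35.8 to 48.0 CPM in TNTSham with a median of 38.7. TNTProx1 1 and 2 exceeded the TNTSham range, and the other 4 were within it. With all 13 libraries the log2 fold change was 0.34 ± 0.13 (SE; 95% interval 0.05 to 0.62; edgeR adjusted p = 0.316), 0.22 without TNTProx1 2 and 0.54 ± 0.13 with the 10 libraries (edgeR adjusted p = 0.0728). Itga9, Flt4 and Pdpn were the 3 of the 10 genes with an exact permutation p under 0.05, which 13.1% of all genes had. For Itga9 it was 0.0425 and for Flt4 0.0472, or 0.362 and 0.373 adjusted over all genes.

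Fxyd6 (ENSMUSG00000066705.8, chromosome 9), a small membrane protein that tunes the sodium pump, was about level. It ranged from 37.5 to 66.3 CPM in TNTProx1 with a median of 53.2, against 37.0 to 67.1 CPM in TNTSham with a median of 48.5. The groups overlapped over almost their whole range. Its log2 fold change of 0.06 ± 0.16 (SE; 95% interval -0.29 to 0.41; edgeR adjusted p = 0.909) turned its sign without TNTProx1 2, at -0.02, and was 0.02 ± 0.20 with the 10 libraries.

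Ccl21a (ENSMUSG00000094686.2, chromosome 4) encodes a form of Ccl21, a chemokine that draws in dendritic cells bearing Ccr7. It stood at 22.7, 85.0, 27.5, 49.8, 39.7 and 37.6 CPM in TNTProx1 1 to 6, against 27.9, 54.8, 58.8, 32.4, 29.4, 35.4 and 52.6 CPM in TNTSham 1 to 7. TNTProx1 held both the highest and the lowest library. The log2 fold change was 0.07 ± 0.28 (SE; 95% interval -0.53 to 0.67; edgeR adjusted p = 0.937), the difference of mean log2(CPM + 0.5) was -0.0016, and the log2 fold change was -0.23 without TNTProx1 2 and 0.11 ± 0.37 with the 10 libraries.

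Mice carry several copies of Ccl21 with near-identical transcripts. The promoters of Ccl21a and of a copy, Gm13304, are set side by side to show how little distinguishes these genes. The windows are from RefSeq, build GRCm38.p6, Ccl21a at chr4:42773942-42774241 on the minus strand and Gm13304 at chr4:42114537-42114836 on the plus strand. Capitals mark the bases that differ, T142C, T144C and G272A, counted from 1 at the 5′ end of the Ccl21a window with the base of Ccl21a first.
Ccl21a: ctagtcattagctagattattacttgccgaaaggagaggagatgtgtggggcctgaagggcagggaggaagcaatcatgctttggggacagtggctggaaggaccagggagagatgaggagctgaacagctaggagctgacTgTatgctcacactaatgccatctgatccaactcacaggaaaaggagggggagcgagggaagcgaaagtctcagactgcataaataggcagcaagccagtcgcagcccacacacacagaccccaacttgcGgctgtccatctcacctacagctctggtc
Gm13304: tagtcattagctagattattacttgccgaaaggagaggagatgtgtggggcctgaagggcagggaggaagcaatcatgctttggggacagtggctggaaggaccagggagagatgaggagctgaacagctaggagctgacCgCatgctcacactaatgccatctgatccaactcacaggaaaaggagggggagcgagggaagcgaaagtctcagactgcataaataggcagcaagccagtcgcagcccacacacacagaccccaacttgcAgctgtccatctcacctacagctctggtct
The windows are offset by 1 base and differ at 3 of 299 aligned bases. This does not hold for every copy, as the window of Ccl21b aligned with that of Ccl21a over 267 bases only. Its differences were not counted. The transcripts differed from that of Ccl21a by 2 of 402 aligned bases for Ccl21b and Gm10591, 5 of 837 for Gm13304 and 6 of 870 for Gm21541. The sources used here do not say how reads that match several copies were counted, so the split between copies is uncertain. Of the 10 Ccl21 symbols looked for, 5 had a row in the table. The sum of these 5 does not depend on how reads were divided among them, but it does on whether shared reads were dropped or counted more than once. It ranged from 55.0 to 223 CPM in TNTProx1, against 71.1 to 158 CPM in TNTSham. For this sum, chosen after the data were seen, the log2 fold change was 0.03 ± 0.30 (SE; 95% interval -0.61 to 0.68; edgeR adjusted p = 0.974).

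**Figure D3:**
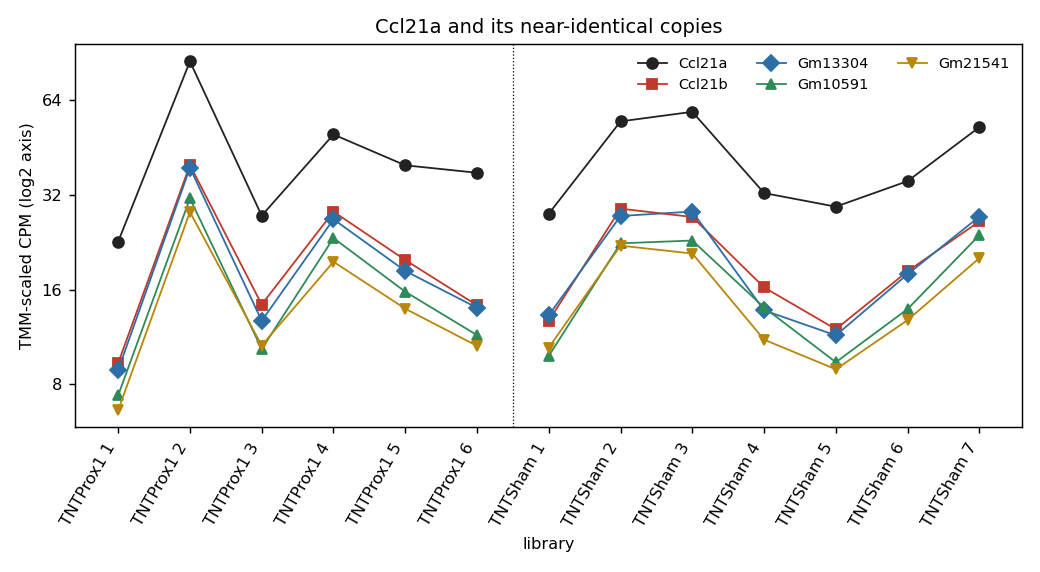
TMM-scaled CPM (log2 axis) of Ccl21a and of 4 near-identical copies in each library, TNTProx1 left of TNTSham. Lines join the points of 1 gene and show that the 5 run in parallel, with TNTProx1 2 highest and TNTProx1 1 lowest for each.

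The copies kept a steady ratio to Ccl21a. Ccl21b stood at 0.379 to 0.569 of it in TNTProx1 and 0.408 to 0.528 in TNTSham, and Gm13304 at 0.372 to 0.538 in TNTProx1 and 0.390 to 0.520 in TNTSham. Their own log2 fold changes were 0.05 ± 0.32 for Ccl21b, 0.00283 ± 0.33 for Gm13304, -0.0041 ± 0.33 for Gm10591 and -0.02 ± 0.32 for Gm21541 (SE).

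Mmrn1 (ENSMUSG00000054641.11, chromosome 6) encodes multimerin 1, a secreted protein of endothelium and platelets that binds coagulation factor V. It stood at 80.3 to 170 CPM in TNTProx1 with a median of 100.3, against 69.4 to 107 CPM in TNTSham with a median of 83.9. TNTProx1 1, 2 and 6 lay above the TNTSham range. Its log2 fold change of 0.37 ± 0.17 (SE; 95% interval 0.02 to 0.72; edgeR adjusted p = 0.385) became 0.19 without TNTProx1 2, and with the 10 libraries it was 0.54 ± 0.19 (edgeR adjusted p = 0.130). Platelets hold Mmrn1 too. Of 8 tested platelet and megakaryocyte markers 6 were above 0, against 47.7% of all genes, at a median of 0.12.

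Reln (ENSMUSG00000042453.15, chromosome 5) encodes reelin, a large secreted glycoprotein that signals through Vldlr and Lrp8 and that collecting lymphatic endothelium releases. Its level was 53.7 to 157 CPM in TNTProx1 with a median of 71.8, against 60.3 to 90.9 CPM in TNTSham with a median of 74.8. TNTProx1 2 alone exceeded the TNTSham range, and TNTProx1 4 and 5 were below it. A log2 fold change of 0.17 ± 0.21 (SE; 95% interval -0.28 to 0.62; edgeR adjusted p = 0.775) turned to -0.11 without TNTProx1 2. Reln had the largest ratio between the subsets of TNTProx1, with a mean of 107 CPM in TNTProx1 1 to 3 and 60.7 CPM in TNTProx1 4 to 6, and its log2 fold change with the 10 libraries was 0.52 ± 0.20 (edgeR adjusted p = 0.155).

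Sema3d (ENSMUSG00000040254.12, chromosome 5), a secreted semaphorin that steers vessel and nerve growth, was the 1 gene with a value below 0. It ranged from 52.1 to 93.8 CPM in TNTProx1 with a median of 75.9, against 65.5 to 113 CPM in TNTSham with a median of 74.9. TNTProx1 4 and 5 lay under the TNTSham range and TNTSham 1 above every other library. The log2 fold change was -0.14 ± 0.16 (SE; 95% interval -0.47 to 0.19; edgeR adjusted p = 0.738), and with the 10 libraries it was 0.08 ± 0.15.

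Seen by library, the 10 genes were high together in TNTProx1 2. This library had the highest level of all 13 for 6 of the 10 genes, namely Lyve1, Flt4, Ccl21a, Mmrn1, Reln and Itga9, where it was highest for 12.9% of all genes tested. It lay above the TNTSham maximum for 8 of the 10, TNTProx1 1 for 6, TNTProx1 5 for 2 and TNTProx1 3, 4 and 6 for 1 each. The mean z-score over the 10 genes, each scaled over the 13 libraries, was 1.97 in TNTProx1 2, 0.46 in TNTProx1 1 and -0.18 to 0.03 in the other 4, against -0.74 to 0.13 in TNTSham. The highest TNTSham library was TNTSham 1, which led its group for Lyve1, Pdpn, Mmrn1, Itga9 and Sema3d. No gene of the 10 had all TNTProx1 libraries above all TNTSham libraries, as 0.398% of all genes did.

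**Figure D4:**
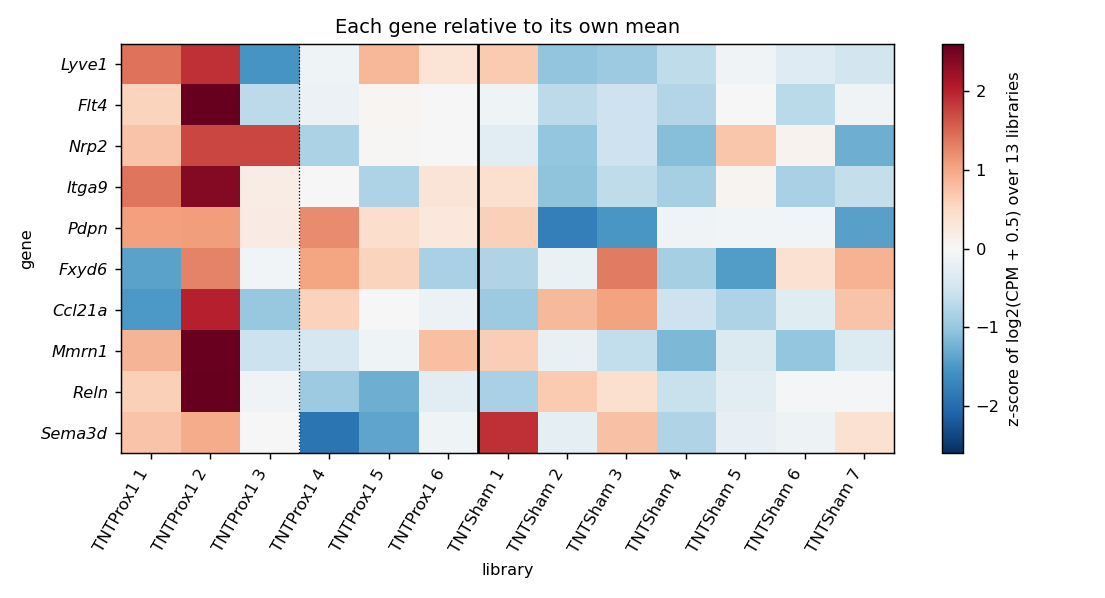
Level of each gene relative to its own mean, as z-scores of log2(CPM + 0.5) over the 13 libraries, red above and blue below. TNTProx1 is left of the solid line and its libraries 4 to 6 are right of the dotted line, and the TNTProx1 2 column is red for all 10 genes.

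Prox1 stood at 18.7 to 72.9 CPM in TNTProx1 with a median of 31.1, against 23.4 to 33.1 CPM in TNTSham with a median of 27.7. TNTProx1 2 had 72.9 and TNTProx1 1 had 42.8 CPM, and TNTProx1 4 had the lowest value of all 13. The fold change was 0.41 ± 0.23 on the log2 scale (SE; edgeR adjusted p = 0.506). It was 0.11 ± 0.16 without TNTProx1 2 and 0.78 ± 0.20 with the 10 libraries (edgeR adjusted p = 0.0747). Only reads aligned to mouse Prox1 are in these counts, and whether RNA of a delivered construct would be among them was not tested.

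Reln, Flt4 and Mmrn1 followed Prox1 across the 13 libraries more closely than nearly all other genes, and without TNTProx1 2 their place among all genes was 795 for Reln, 2689 for Flt4 and 1416 for Mmrn1. Reln had a Pearson r of 0.87 on log2(CPM + 0.5), the 5th highest of 22875 genes, with a Spearman rho of 0.70 (permutation p = 0.00131 and 0.0100). Flt4 had r = 0.85 and ranked 7th, with rho = 0.57 (permutation p = 0.00485 and 0.0457). Mmrn1 had r = 0.83 and ranked 13th, with rho = 0.59 (permutation p = 0.00237 and 0.0365). Itga9, at r = 0.75 and rank 75, had rho = 0.49 (permutation p = 0.00722 and 0.0900). Lyve1 and Nrp2 both had r = 0.61 with permutation p = 0.0231. Their rho was 0.24 for Lyve1 and 0.38 for Nrp2 (permutation p = 0.438 and 0.196). Sema3d had r = 0.55 and rho = 0.57 (permutation p = 0.0571 and 0.0479). Ccl21a, Pdpn and Fxyd6 had r of 0.35, 0.17 and 0.14 and rho of 0.19, 0.03 and 0.14, all with a permutation p above 0.05.

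These relations did not pass over all genes. With p-values adjusted over 22875 genes, 0 genes were called (0.0%), and the adjusted permutation p of the 6 genes named first was 0.394. At an unadjusted p under 0.05, 6 of the 10 genes had a positive r with Prox1, against 4.93% of all genes, and with Spearman rho 4 did, against 2.12%. The median r of the 10 was 0.61, against 0.04 over all genes.

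How far the relations rest on single libraries differed by gene. Without TNTProx1 2 alone, r was 0.61 for Reln, 0.56 for Sema3d, 0.55 for Mmrn1, 0.47 for Flt4, 0.42 for Itga9, 0.37 for Nrp2 and 0.32 for Lyve1, and below 0 for Pdpn, Ccl21a and Fxyd6. Of the 10 genes 1, Reln, then had a positive r at an unadjusted permutation p under 0.05, against 3.6% of all genes. Without TNTProx1 2 and 4, the 2 libraries farthest from the median of Prox1, r was 0.71 for Flt4, 0.65 for Itga9 and Mmrn1 and 0.52 for Reln, and -0.15 for Ccl21a and -0.11 for Fxyd6. Of the 10 genes 3, Flt4, Mmrn1 and Itga9, then had a positive r at an unadjusted permutation p under 0.05, against 0.516% of all genes. In this set TNTProx1 1 stood alone in Prox1, at 42.8 CPM against 23.4 to 33.1 CPM in the rest. It was also the highest there for these 3 genes, and their r without it was not computed for this set. With the 10 libraries without TNTProx1 4 to 6, r was 0.95 for Flt4, 0.92 for Reln, 0.90 for Mmrn1 and 0.85 for Itga9, and 5 of the 10 genes were at that level, against 4.13% of all genes. When the 2 farthest of these, TNTProx1 2 and 1, were left out as well, it was 0.34 for Flt4, 0.55 for Reln, 0.25 for Mmrn1, 0.02 for Itga9, 0.06 for Nrp2 and -0.27 for Lyve1, and no gene of the 10 had an exact permutation p under 0.05. Within the 10 libraries the relations of Flt4, Mmrn1, Itga9 and Lyve1 thus rest on those 2, while Ccl21a stood at 0.52 and Fxyd6 at 0.64 without them. Inside TNTProx1 alone, TNTProx1 2 included, r was 0.93 for Reln, 0.92 for Mmrn1, 0.88 for Sema3d, 0.87 for Flt4 and 0.86 for Itga9. There 5 of the 10 genes had a positive r at an unadjusted exact permutation p under 0.05, against 6.46% of all genes. By Spearman rho 3 did, against 4.02%, and Flt4 had rho = 0.71 (exact permutation p = 0.136). Inside TNTSham alone, where Prox1 covers a narrow range, it was 0.56 for Reln, 0.43 for Flt4, 0.27 for Mmrn1 and -0.07 for Itga9, with Ccl21a at 0.67, Fxyd6 at 0.65 and Pdpn at -0.65. In TNTSham alone exact permutation gave no p under 0.05 for the r of any of the 10 genes, and for Spearman rho it did for Reln (rho = 0.79, p = 0.0480).

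**Figure D5:**
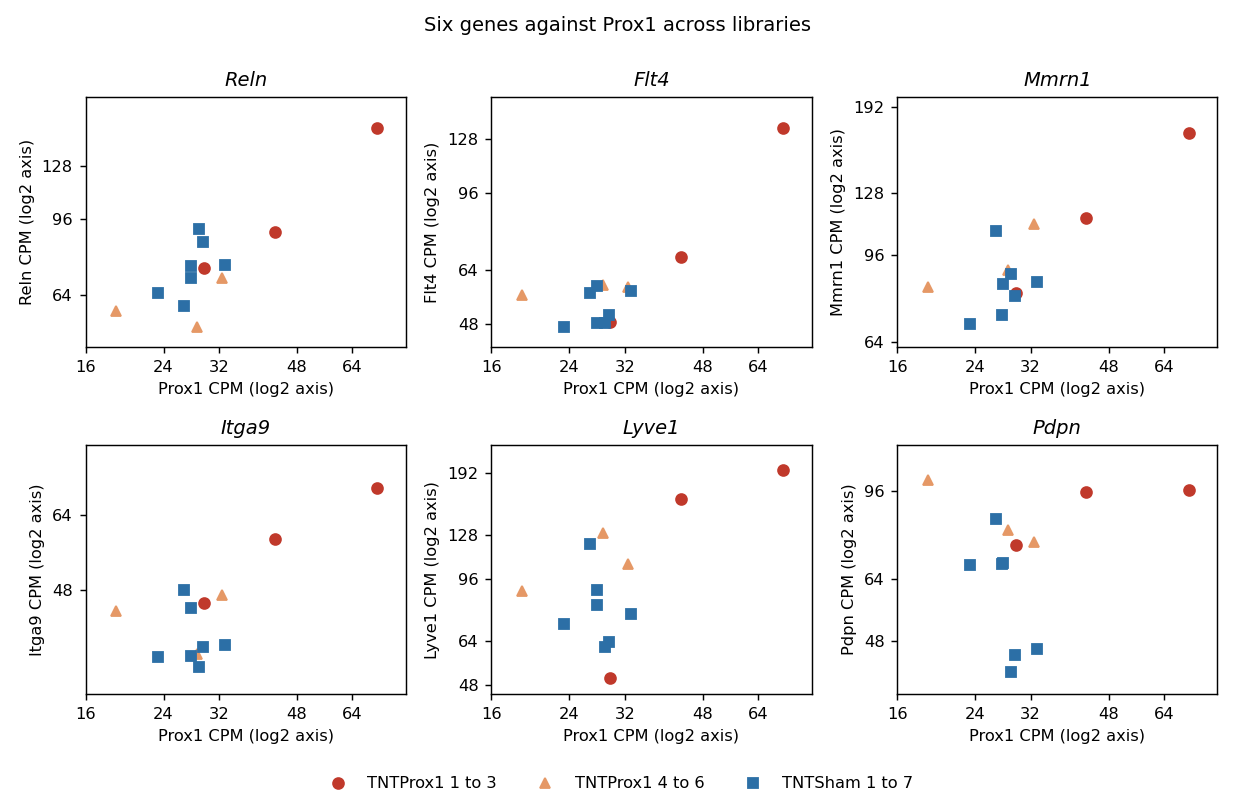
Level of 6 genes against that of Prox1, both in TMM-scaled CPM on log2 axes, 1 point per library. TNTProx1 2, at 72.9 CPM of Prox1, is far to the right of every panel and TNTProx1 1 next to it, and the other 11 libraries form a cloud between 18.7 and 33.1 CPM.

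By Pearson r, Flt4, Mmrn1, Itga9 and Lyve1 varied together, and Ccl21a and Fxyd6 formed a second pair. Of the 45 pairs of the 10 genes 35 had a positive r over the 13 libraries, at a median of 0.46. In a permutation test adjusted over the 45 pairs 8 passed. How many pairs of other genes would pass was not counted. The highest was Flt4 with Mmrn1 at r = 0.90 (rho = 0.82), followed by Mmrn1 with Itga9 at 0.88 and Flt4 with Itga9 at 0.85. Lyve1 had r = 0.81 with Mmrn1, 0.80 with Flt4 and 0.73 with Itga9, and Nrp2 had 0.71 with Itga9. Ccl21a and Fxyd6 had r = 0.81 (rho = 0.76, adjusted permutation p = 0.00682). All 8 kept their sign without the 2 libraries farthest from the median, with Lyve1 and Itga9 at 0.27 and Flt4 and Itga9 at 0.48. The lowest r was -0.29, between Pdpn and Ccl21a, and 10 pairs were negative. With Spearman rho 5 pairs passed, those of Flt4, Mmrn1 and Lyve1 with each other, Ccl21a with Fxyd6 and Lyve1 with Pdpn, and no pair with Itga9 did. With the 10 libraries 8 passed by Pearson r and 1 by Spearman rho, Pdpn with Itga9.

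The genes most like each of the 10 were sought among 14666 protein-coding genes with a mean of at least 1 CPM. Clec4n and Gng2 were among the nearest to Lyve1. Nearest to Pdpn was Lcp1, an actin bundler of leukocytes, at r = 0.96, then Csgalnact1 and C1rb. Nrp2 was followed most closely by Rai14 at 0.96, Fndc3b and Runx2, the master transcription factor of osteoblasts. Flt4 had Mmrn1 at 0.90, Ifi47 and Calcrl, the adrenomedullin receptor of lymphatic endothelium, and Mmrn1 had Sqor at 0.95, Flt4 and Itga9. Reln had Prox1 itself at 0.87, then Tns1 and Zbtb46. Itga9 had Grk5 at 0.92, Pde3a and Swap70, and Fxyd6 had S100a4 at 0.92, Gm42674 and Thnsl2. Sema3d had Pax5 at 0.85 and Fcer2a, both known from B cells, and Xkr4. For Ccl21a the first 3 were its copies Gm13304 (0.97), Gm21541 and Ccl21b. The mean z-score of the 10 genes was followed best by Calcrl at 0.92, Kctd12, Sqor, Dennd5a, Samd9l, Prox1 at 0.87, Slfn5, Stard8, Ifi47 and Zbtb46. These are descriptions over 13 libraries that share depth and tissue make-up.

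Markers of other cells moved with several of the 10 genes. Each gene was set against the mean z-score of 8 marker lists, 80 relations chosen after the data were seen. Of these, 13 passed a permutation test adjusted over the 80. The share of all genes that would pass was not counted, so the 13 are not shown to be particular to these genes. Nrp2 and Itga9 were higher where blood endothelial markers were higher (r = 0.83 and 0.82, adjusted permutation p = 0.0220 and 0.0208), as were Mmrn1 at 0.76 and Flt4 at 0.69. The same held for Mmrn1 and Flt4 with macrophage markers (0.72 and 0.70). Pdpn, Itga9 and Nrp2 ran against skeletal muscle markers, at r of -0.78, -0.77 and -0.75. Nrp2 ran with osteocyte and osteoblast markers (0.69) and Pdpn with platelet markers (0.70). Ccl21a and Fxyd6 ran with Schwann and nerve markers (0.71 and 0.72). All 13 kept their sign without the 2 libraries farthest from the list's median, but several shrank. Mmrn1 and Flt4 fell to r of 0.35 and 0.43 with macrophage markers. Flt4 fell to 0.40 with blood endothelial markers, and Itga9 went to -0.44 with muscle markers. Those of Pdpn with platelet and Fxyd6 with nerve markers rose, to 0.75 and 0.84, and the rest shrank less. With Spearman rho 6 of the 13 passed too, namely those of Nrp2 and Itga9 with blood endothelial, Nrp2 with bone, Pdpn with platelet and Ccl21a and Fxyd6 with nerve markers. Pdpn with macrophage markers passed with Spearman rho only. The relations of Lyve1, Reln and Sema3d to the lists did not pass, with Lyve1 and macrophage markers at r = 0.69.

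Across the groups, edgeR called no gene of these 8 lists. The share of all genes tested with a log2 fold change above 0 was 47.7%. Of 14 blood endothelial markers 11 had a log2 fold change above 0, at a median of 0.20, and their summed level was 691 to 848 CPM in TNTProx1 and 552 to 732 CPM in TNTSham. Macrophage markers were above 0 for 13 of 14, at a median of 0.37, and summed to 1640 to 2535 CPM in TNTProx1, highest in TNTProx1 2, and 1433 to 2310 CPM in TNTSham, highest in TNTSham 1. Skeletal muscle markers were below 0 for 13 of 14, at a median of -0.62, with sums of 4738 to 11975 CPM in TNTProx1 and 9436 to 16415 CPM in TNTSham. Osteocyte and osteoblast markers were above 0 for all 11 that were tested, at a median of 0.68, with sums of 539 to 1007 CPM in TNTProx1 and 156 to 795 CPM in TNTSham. Fibroblast markers (11 of 12 above 0, median 0.25) summed to 35972 to 104823 CPM in TNTProx1 and 26782 to 50572 CPM in TNTSham. Most of that sum was collagen RNA, so it does not stand for the whole list. Col1a1 had a mean of 28458 CPM in TNTProx1 and 18218 CPM in TNTSham, and Col1a2 of 23156 and 15804 CPM. Schwann and nerve markers (7 of 12 above 0, median 0.06) gave 460 to 548 CPM in TNTProx1 and 452 to 656 CPM in TNTSham. For keratinocyte markers 4 of 12 were above 0, at a median of -0.20, or -0.78 with the 10 libraries. With the 10 libraries the medians were 0.36 for blood endothelial, 0.29 for macrophage, -1.12 for muscle, 0.91 for bone, 0.29 for fibroblast and 0.02 for nerve markers. DESeq2 called 5 muscle markers lower, where 0.73% of all genes were called lower, and it called 4 blood endothelial, 2 bone and 1 fibroblast marker higher, where 1.98% were called higher. No marker was at 0 in every library, and a few stand in more than 1 list, such as Thy1, Emcn, Kdr and Mrc1. Vwf and Selp stand in both the blood endothelial and the platelet list. The part of these cells in the values of the 10 genes was not tested.

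Among 20 genes of lymphatic identity and valves, 17 were above 0 on the log2 fold scale, at a median of 0.25 (0.39 with the 10 libraries). At an unadjusted p under 0.05 in edgeR, 7 were higher and 0 lower. Of all genes tested 47.7% were above 0 and 8.33% were higher at that level. Sox18, a transcription factor upstream of Prox1, had the highest value, with 13.1 ± 5.42 CPM in TNTProx1 and 6.53 ± 1.46 CPM in TNTSham and a log2 fold change of 1.0 ± 0.24 (SE). Foxc1 had the lowest, -0.12 ± 0.15. Tie1, an endothelial receptor tyrosine kinase, had 54.5 ± 10.3 CPM in TNTProx1 and 30.9 ± 5.75 CPM in TNTSham, a log2 fold change of 0.82 ± 0.14 (edgeR adjusted p = 0.0848). Foxc2, the valve transcription factor, had 2.96 ± 0.811 CPM in TNTProx1 and 1.80 ± 0.300 CPM in TNTSham. The highest library was TNTProx1 6 for Sox18 and Tie1 and TNTProx1 4 for Foxc2, and not TNTProx1 2 as for Prox1. With the 10 libraries the log2 fold change was lower, at 0.69 ± 0.20 for Sox18 and 0.69 ± 0.17 for Tie1 (SE). For Foxc2 it was 0.57 ± 0.24 with the 10 libraries, against 0.72 ± 0.22 with all 13. DESeq2 called 3 of the 20, all higher, where it called 1.98% of all genes higher.

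Of 30 further surface and secreted genes of lymphatic endothelium 27 were above 0, against 47.7% of all genes, at a median of 0.28. At an unadjusted p under 0.05 in edgeR, 11 were higher and 0 lower, where 8.33% of all genes were higher. Their smallest p-values belonged to Thy1, a surface glycoprotein (0.47 ± 0.12), Emcn, endomucin (0.49 ± 0.13), and Cldn5, the tight junction protein of endothelium (0.96 ± 0.25). With the 10 libraries these were 0.31 ± 0.12 for Thy1, 0.37 ± 0.15 for Emcn and 0.58 ± 0.28 for Cldn5. Thy1 is also in the fibroblast list and Emcn in the blood endothelial list, so these genes are not particular to lymphatic endothelium. Marco had the highest value, 1.80 ± 0.61, at 0.608 ± 0.406 CPM in TNTProx1 and 0.172 ± 0.121 CPM in TNTSham, and Ackr4, a scavenger of Ccl21, the lowest, -0.12 ± 0.15, or -0.28 ± 0.18 with the 10 libraries. DESeq2 called 5 of the 30, all higher, where it called 1.98% of all genes higher.

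Of 39 ligands, receptors and partners of the 10 genes 28 were above 0, against 47.7% of all genes, at a median of 0.13. At an unadjusted p under 0.05 in edgeR, 12 were higher and 2 lower. Of all 22876 genes 8.33% were higher and 897 genes lower at that level. Emilin1, a matrix ligand of Itga9 in lymphatic valves, had 67.0 ± 15.2 CPM in TNTProx1 and 35.8 ± 7.91 CPM in TNTSham, a log2 fold change of 0.91 ± 0.17 (edgeR adjusted p = 0.0848). Spp1, osteopontin, another integrin ligand, had 807 ± 102 CPM in TNTProx1 and 423 ± 155 CPM in TNTSham, a value of 0.93 ± 0.21. Plxnd1, a receptor of secreted semaphorins, stood at 0.65 ± 0.17. The lowest was Atp1b1, a subunit of the sodium pump that Fxyd6 tunes, at -0.44 ± 0.20. All 3 of the higher ones peaked in TNTProx1 3. The edgeR test called none of the genes in these 3 lists over all genes. DESeq2 called 3 of the 39, all higher, where it called 1.98% of all genes higher.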

How the data were processed

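The authors deposited 1 table of raw counts per gene for 13 libraries from total RNA. Per the labels' protocols, ribosomal RNA was depleted and stranded paired-end libraries were made. The submitters' processing notes name fastp 0.20.1, HISAT2 2.2.1, featureCounts of Subread 2.0.2, DESeq2 1.34.0, R 4.1.2 and build GRCm39. The annotation release, the strand setting and the handling of multi-mapping reads are not stated there. GENCODE M21, of an older build, supplied symbols and exon lengths for 52081 of 55357 genes.

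Libraries had 29.7M to 48.0M counts (M, mega). They were scaled by TMM and filtered by filterByExpr to 22876 genes in edgeR 4.0.16 (R 4.3.3), and tested for the group by quasi-likelihood with no covariate. P-values were adjusted over all genes tested, or within the pairs and marker list relations where so stated, with a threshold of 0.05. Single genes were also tested by two-sided exact permutation of log2(CPM + 0.5). Correlations across libraries had 100000 permutations, or all of them under 10 libraries. Tests were tried on simulated data. The alternatives were DESeq2 1.42.0, limma 3.58.1 voom with quality weights, other scalings and filters, log2(CPM + 2), a fit without TNTProx1 4 to 6 and leaving out each library.

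The 10 genes, the gene lists and these choices were made with earlier results of these data known. Named are the 10 genes, Prox1, the Ccl21 copies, the 3 genes most like each of the 10, the 10 most like their mean z-score, and, from the lymphatic and partner lists, the 3 genes of smallest p with the highest and lowest fold change. A gene that this rule also names is not reported here. Other cell lists are given as counts and sums, with Col1a1 and Col1a2 named as most of the fibroblast sum. Replicate numbers follow deposit order and pair nothing.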

Additional observations from a re-analysis of the deposited data

Results flagged for a closer look

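In TNTProx1 2, Flt4 stood at 136 CPM, against 48.5 to 68.6 CPM in the other 5 TNTProx1 libraries, a gap wide enough to set this sample far from its group. The same library stood out for Mmrn1, at 170 CPM against 80.3 to 114 CPM in the other 5, and for Reln, at 157 CPM against 53.7 to 89.6 CPM. The gap to the next library, as a share of the group's range, was 0.769 for Flt4 and 0.652 for Reln. For Mmrn1 it was 0.6255, just over the limit of 0.625. These flags are 3 of 32 groups of values checked, and chance flags about 1 in 20 groups. The 32 include Ccl21a, its copies and their sum, which are not separate checks. All 3 came from 1 library, the one with the highest Prox1, at 72.9 CPM, and the lowest summed keratinocyte markers, at 6016 CPM. The part of either in these values was not tested.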

How the results depend on the processing

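The count of genes called over the whole table, 0 in edgeR, was 1 with no low-count filter, 619 with DESeq2, 573 with limma voom and 0 to 589 when 1 library was left out, with 589 without TNTProx1 1 and 34 without TNTSham 5. Of the 10 genes, 1 was called, Nrp2 by limma voom, and 0 in every other fit run. Their median log2 fold change was 0.23 in limma voom, 0.54 without TNTProx1 4 to 6 and 0.17 to 0.41 when 1 library was left out. Signs turned for few genes. The log2 fold change of Ccl21a was -0.32 in limma voom and -0.23 to 0.20 with 1 library left out, negative without TNTProx1 2 and without TNTSham 1 (-0.0052). That of Reln ran from -0.11 to 0.27 and that of Fxyd6 from -0.020 to 0.14, negative without TNTProx1 2 and, for Fxyd6, also without TNTSham 5 (-0.0050). Sema3d turned to 0.079 without TNTProx1 4 to 6, and its difference of mean log2 CPM to 0.10. The difference of Ccl21a was 0.00054 with log2(CPM + 2). Correlations with Prox1 turned in TNTSham alone for Lyve1 (-0.19), Pdpn (-0.65), Nrp2 (-0.14) and Itga9 (-0.074). Centred on the group means, that of Pdpn was -0.075. Without the 2 farthest libraries those of Ccl21a and Fxyd6 were -0.15 and -0.11. With 1 library left out, r ran from -0.16 to 0.42 for Pdpn, from -0.30 to 0.58 for Ccl21a and from -0.32 to 0.33 for Fxyd6, lowest without TNTProx1 2. The causes were not tested. No paired analysis was possible because the labels give the groups no shared replicate numbers. Each of the 10 genes had 878 reads or more in each library, and standard errors of 0.13 to 0.28 on the log2 scale.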
